A study of Bos grunniens x Bos taurus and Bos grunniens with 12 samples.

Results

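The interaction of breed and month asks whether the small RNAs of milk exosomes changed from December to June by a different amount in Jeryak milk than in yak milk. It was taken as June minus December in Jeryak minus June minus December in yak, on the log2 of the deposited norm value plus 1, so that a positive value means a month change that was more positive in Jeryak. All 12 libraries entered it, 3 from each of June Jeryak, December Jeryak, June yak and December yak milk. Of the 2263 entries in the authors' table, 620 reached a norm value of 10 in 3 or more libraries and were tested. These comprised 251 entries named after cattle precursors (bta), 194 named after precursors of other species and 175 predicted candidates (named PC). Of the 620, 360 were above 0 in at least 1 library of every group and are called measured here, while 260 were at 0 in all 3 libraries of at least 1 group and are treated apart.

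The yak is the bovine of the Tibetan plateau, and the Jeryak is its hybrid with Jersey cattle. The milk came from lactating animals of 4 to 5 years, and no treatment was given in the labels. The labels and methods do not match single libraries to animals, so it is not known here whether a June and a December library share an animal, and the p-values measure the spread between these libraries. The deposited values cover exosomal RNA, in which fewer exosomes from a cell type and fewer copies per exosome cannot be told apart.

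Exosomes are small membrane vesicles that cells release, and those of milk come largely from the mammary epithelium, with others from immune cells. The miRNAs they carry bind messenger RNAs mainly through the seed, the bases near their 5′ end, and lower the output of those messengers. A small RNA library also catches fragments of transfer and ribosomal RNA, and a short fragment can match a miRNA precursor of a distant species by its letters.

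The entries on which the results turn are shown first as the authors' table gives them, 5′ to 3′, with the seed (bases 2 to 8) in capitals. The first 4 were measured in all groups and passed the test, the next 2 are the cattle-named entries that passed and were at 0 in December yak or in June of both breeds, and the last 2 are cattle miRNAs with wide differences that did not pass.
PC-5p-681_10485: tCCCTGTGgtctagtggttaggat
mmu-miR-5100_L+2R-1: gTTCGAATcccagcggtgcctc
ssc-miR-1285_L-1R+1: tGGGCAACatagcgagaccccgtc
chi-miR-29b-5p_L+1R-5: gCTGGTTTcacatggtggc
bta-miR-6524_R+1: tTACTCTGagtaacctaactgt
bta-miR-12023_1ss17GA: cTCCTCCCgcccccccac
bta-miR-21-5p_R-2: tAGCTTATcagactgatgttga
bta-miR-146b: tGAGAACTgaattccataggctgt
The 34 entries that passed had 34 distinct sequences and 33 distinct seeds, since the pair named after efu-miR-9277 share theirs. None of the 34 shared its seed with a tested cattle-named entry.

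The sums of the norm values were 588715 to 816871 per library. The value that 1 copy stood for, read from the spacing of the values, was 0.127 to 0.269 in December Jeryak libraries and 0.730 to 3.30 in the other 9 libraries. Low values were therefore resolved best in December Jeryak milk, and this difference in depth and the group cannot be told apart. As a share of these sums, bta entries held 86.3 ± 3.04% in June and 96.2 ± 0.722% in December for Jeryak milk, and 87.6 ± 3.21% and 89.7 ± 3.28% for yak milk (SD, n = 3).

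Few entries passed the test for a breed difference in month change. With limma and Benjamini-Hochberg adjustment, 34 of 620 entries (5.48%) had an adjusted p under 0.05, 24 positive (3.87%) and 10 negative (1.61%), and 114 had an unadjusted p under 0.05. Over the same entries the month change itself passed for 253 (40.8%) in Jeryak and for 211 (34%) in yak. The tests differ in power, since the interaction has the larger standard error. For PC-5p-681_10485 it was 0.66, against 0.47 for each month change. Of the 360 measured entries 9 passed (2.5%), all with a positive interaction. Of the 260 entries at 0 in a whole group 25 passed (9.62%), 15 positive and 10 negative. This share includes entries that the minimum norm value let in through their peak group alone. Entries of other species passed in 16 of 194 cases (8.25%) and predicted candidates in 16 of 175 (9.14%). Of the bta entries, which held most of the signal, 2 of 251 passed (0.797%). When replicate 1, 2 or 3 of December Jeryak was left out, the total of 34 became 8, 12 or 15. It was 16 when December yak replicate 2 was left out and 10 for replicate 3 of that group.

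Among the 34, December yak milk had the highest mean for 15, June Jeryak milk for 10, June yak milk for 8 and December Jeryak milk for 1. Over all tested entries these groups led for 109, 250, 122 and 139. Every library of the leading group lay above every other library in 12 of the 15 led by December yak (5% of all tested entries), 9 of the 10 led by June Jeryak (5.16%), 7 of the 8 led by June yak (5.16%) and the 1 led by December Jeryak (3.39%). Together the 34 entries made up 0.450 ± 0.284% of the norm sum in June and 0.298 ± 0.160% in December for Jeryak milk, and 1.61 ± 1.03% and 3.32 ± 1.03% for yak milk (SD, n = 3). These shares describe entries chosen by the test and carry no test of their own.

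Most of the 9 measured entries had a peak in December yak milk. In 8 of them the yak value was lower in June than in December at an adjusted p under 0.05, and in 7 the month change had opposite signs in the breeds. Over all tested entries 34% passed for month in yak, in either direction, and 75% of measured entries had the same sign in both breeds. Choosing entries by the interaction favours opposite signs, so these counts are a description. The 9 include the pair named after efu-miR-9277, which hold identical values. In December the Jeryak value was below the yak value at an adjusted p under 0.05 for 7 of the 9. Over all tested entries 5.97% passed between the breeds in December, in either direction. None of the 9 passed between the breeds in June (5% of all tested entries). In the Jeryak 3 of the 9 passed for month (40.8% of all tested entries). The December against June and Jeryak against yak values share libraries with the interaction, and are given beside it to show what it is made of. When June Jeryak replicate 1 was left out 16 measured entries passed, and 4 when replicate 3 of that group was. The number was 2 or 5 when December Jeryak replicate 1 or 2 was left out, and 5 or 3 for December yak replicate 2 or 3.

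**Figure D1:**
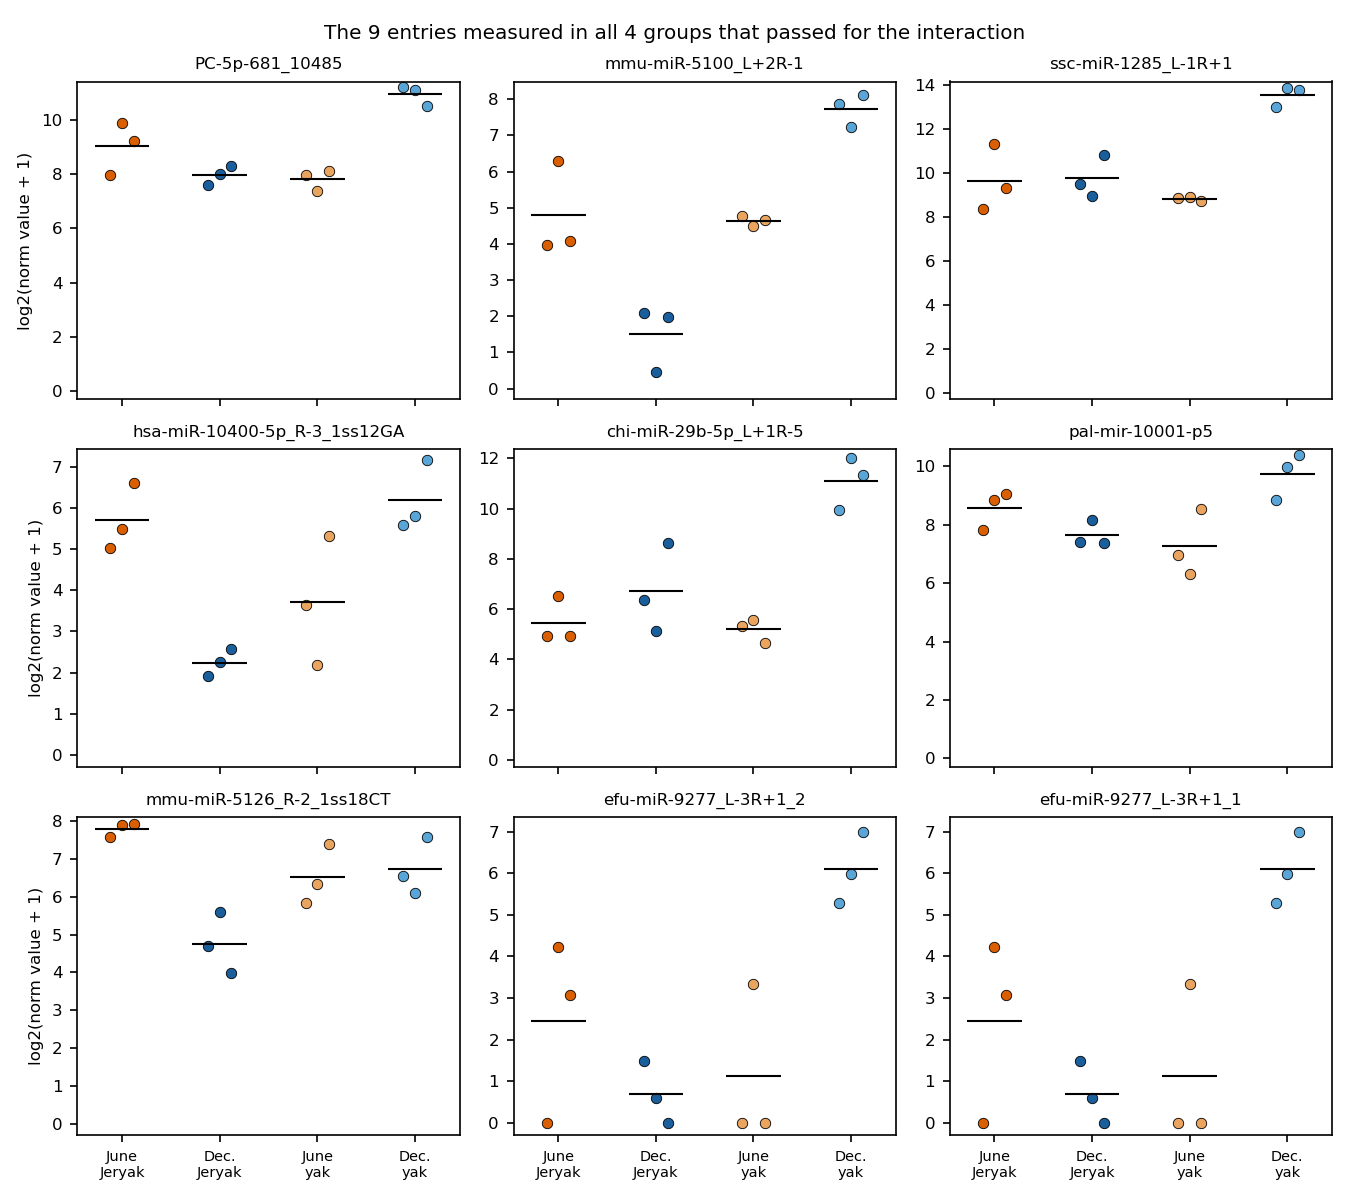
Norm values, as log2(value + 1), of the 9 entries measured in all 4 groups that passed for the interaction, by group. Each point is 1 library and each bar the mean of 3, and the December yak mean is the highest in 8 of the 9 panels.

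PC-5p-681_10485, a predicted candidate of 24 nt, had norm values of 249, 935 and 599.6 in June Jeryak, 194, 259 and 313 in December Jeryak, 251, 164 and 279 in June yak and 2389.5, 2203 and 1443 in December yak milk. All 3 December yak libraries lay above every other library, and the other groups overlapped one another. Its interaction was 4.16 on the log2 scale (standard error 0.66, adjusted p = 0.0069), made of a June minus December difference of 1.05 in Jeryak (adjusted p = 0.088) and of -3.12 in yak (adjusted p = 1.7e-04). The December mean of yak was 8.70 times its June mean. A related candidate of lower abundance, PC-5p-14546_484, chosen after its values were seen, shares an unbroken stretch of 18 nt with it, shown here in capitals.
PC-5p-681_10485: tccctgTGGTCTAGTGGTTAGGAT
PC-5p-14546_484: tcccTGGTCTAGTGGTTAGGATt
It had 0, 0 and 22.2 in June Jeryak, 7.98, 9.77 and 10.5 in December Jeryak, 0, 0 and 0 in June yak and 158, 132 and 139.8 in December yak milk. Its December yak libraries too were above all the others, but its interaction missed the threshold (adjusted p = 0.076).

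mmu-miR-5100_L+2R-1, of a mouse-named precursor, fell from June to December in Jeryak milk and rose in yak milk. Its norm values were 14.8, 77.9 and 16.0 in June Jeryak, 3.28, 0.381 and 2.96 in December Jeryak, 26.4, 21.4 and 24.1 in June yak and 231, 150.4 and 275 in December yak milk. December yak was highest and December Jeryak lowest, neither overlapping any other group, while the June groups overlapped each other. The interaction was 6.37 (standard error 1.08, adjusted p = 0.0069). June minus December was 3.27 in Jeryak (adjusted p = 0.0042) and -3.10 in yak (adjusted p = 0.0062). In December the Jeryak minus yak difference was -6.22 (adjusted p = 4.3e-04) and in June 0.15 (adjusted p = 0.97).

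The opposite month changes of mmu-miR-5100_L+2R-1 were shared by hsa-miR-10400-5p_R-3_1ss12GA, an entry of 18 nt under a human-named precursor. It had 31.4, 44.2 and 96.2 in June Jeryak, 2.75, 3.74 and 4.99 in December Jeryak, 11.6, 3.57 and 38.9 in June yak and 47.4, 54.8 and 143 in December yak milk. Every June Jeryak library was above every December Jeryak library, and every December yak library above every June yak library, while June Jeryak overlapped with both groups of yak. The interaction was 5.93 (standard error 1.21, adjusted p = 0.017), with a June minus December difference of 3.46 in Jeryak (adjusted p = 0.0057) and -2.47 in yak (adjusted p = 0.04). It passed in 10 of the 12 fits that left out 1 library, the exceptions being December Jeryak replicate 1 (adjusted p = 0.057) and December yak replicate 3 (adjusted p = 0.065).

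The most abundant entry that passed was ssc-miR-1285_L-1R+1, of a pig-named precursor. It had 327, 2549.5 and 634 in June Jeryak, 741, 494 and 1833 in December Jeryak, 465, 481 and 424 in June yak and 8241, 15337 and 14090.0 in December yak milk. Every December yak library was several times above every other library. Among the other 3 groups, every December Jeryak library was above every June yak library, by little, and June Jeryak overlapped with both. Its interaction was 4.62 (standard error 0.92, adjusted p = 0.015). Nearly all of it came from yak, where June minus December was -4.73 (adjusted p = 8.4e-05), against -0.11 in Jeryak (adjusted p = 0.9). The December yak mean was 27.5 times the June yak mean and 12.3 times the December Jeryak mean. The call was lost without December Jeryak replicate 1 (adjusted p = 0.053).

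The strand opposite to the usual product of a miR-29b precursor gave the entry chi-miR-29b-5p_L+1R-5, named after the goat. The miR-29 family is known to act on messengers of collagens and other matrix proteins, through its 3p strands. chi-miR-29b-5p_L+1R-5 had 29.6, 90.5 and 29.6 in June Jeryak, 82.1, 34.0 and 392 in December Jeryak, 39.6, 46.9 and 24.1 in June yak and 979, 4091 and 2620.4 in December yak milk. December yak libraries stood above all others, and the other groups overlapped, with December Jeryak replicate 3 the highest among them. The interaction was 4.66 (standard error 1.16, adjusted p = 0.039), and in yak June minus December was -5.90 (adjusted p = 9.3e-05). The 3p strand, bta-miR-29b_R-2, had 248, 107 and 49.3 in June Jeryak, 293, 272 and 363 in December Jeryak, 439.7, 288 and 59.0 in June yak and 279, 181 and 177 in December yak milk, with every December Jeryak library above every June Jeryak library, overlap between all other pairs of groups and an interaction of -1.40 (adjusted p = 0.46). The ratio of the 5p to the 3p entry was accordingly 3.52 to 22.7 in December yak libraries and 0.0901 to 1.08 in the other 9. The call of chi-miR-29b-5p_L+1R-5 was lost in 9 of the 12 fits without 1 library (adjusted p = 0.056 to 0.11).

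The 2 measured entries that follow are nearly pure G and C and share 17 nt of sequence with each other. pal-mir-10001-p5, of a bat-named precursor, had 225, 455 and 535 in June Jeryak, 170.2, 287 and 166 in December Jeryak, 125, 79.5 and 376 in June yak and 457, 997 and 1334 in December yak milk. December yak was above December Jeryak and June yak in every library but overlapped June Jeryak. Its interaction was 3.35 (standard error 0.85, adjusted p = 0.04). mmu-miR-5126_R-2_1ss18CT, of a mouse-named precursor, had 190.4, 238 and 239 in June Jeryak, 24.7, 47.7 and 14.7 in December Jeryak, 56.1, 80.0 and 166 in June yak and 91.9, 67.0 and 190.1 in December yak milk. It was the 1 measured entry with its peak in June Jeryak, although by a narrow margin, and with December Jeryak below every other library, whereas the groups of yak overlapped. Its interaction was 3.26 (standard error 0.83, adjusted p = 0.042), from a June minus December difference of 3.04 in Jeryak (adjusted p = 0.0014) and -0.21 in yak (adjusted p = 0.82). Each of these calls was lost in 9 of the 12 fits without 1 library, at an adjusted p of 0.066 to 0.12 for the first and 0.057 to 0.12 for the second.

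The remaining measured entries, efu-miR-9277_L-3R+1_1 and efu-miR-9277_L-3R+1_2, carry the name of a bat precursor, hold identical values and were named after their values were seen. Their norm values were 0, 17.9 and 7.40 in June Jeryak, 1.77, 0.508 and 0 in December Jeryak, 0, 9.17 and 0 in June yak and 38.3, 62.1 and 128 in December yak milk. December yak was above all others, and the other groups were low and overlapped. The interaction was 6.73 (standard error 1.75, adjusted p = 0.042), and it was lost in 10 of the 12 fits without 1 library (adjusted p = 0.062 to 0.12). These entries and mmu-miR-5100_L+2R-1 hold the letters TCGAATCC, which are found in the T arm of many transfer RNAs. Searched on both strands, the letters stood in 5 of 620 tested entries (0.806%), always in the sense direction. The letters were chosen after the values of these entries were seen, and the 5 are not independent, since the pair named after efu-miR-9277 hold identical values and mmu-mir-5100-p3 repeats mmu-mir-5100-p5 in letters and values. As a description, 3 of the 5 passed (5.48% of all tested entries), and all 5 had their highest mean in December yak milk (17.6% of all tested entries). The letters are in capitals in these sequences.
mmu-miR-5100_L+2R-1: gtTCGAATCCcagcggtgcctc
mmu-mir-5100-p5: gtTCGAATCCcagcggtg
efu-miR-9277_L-3R+1_1: TCGAATCCtgccgactacgcc
efu-miR-9277_L-3R+1_2: TCGAATCCtgccgactacgct
The shorter mmu-mir-5100-p5 had 0, 5.26 and 0 in June Jeryak, 3.99, 5.90 and 9.97 in December Jeryak, 0, 0 and 0 in June yak and 89.4, 23.7 and 84.8 in December yak milk, again with December yak above all other libraries, and an adjusted p of 0.14 for the interaction. It too was named after its values were seen.

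Over the 360 measured entries the month change was mostly shared by the breeds. The June minus December differences of Jeryak and of yak rest on different libraries. They had the same sign for 270 entries (75%) and a Pearson's r of 0.609 and Spearman's rho of 0.55 across entries, which share their libraries and so are not independent replicates. Among measured bta entries 172 of 218 had the same sign (78.9%), and among measured entries of other species 93 of 132 (70.5%). The median interaction was -0.25 over measured bta entries and 0.52 over measured entries of other species. Scaling by library totals or by the median ratio of bta entries raised the median interaction over all tested entries from 0.09 to 0.27 and 0.30, so a single value is read against that shift.

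**Figure D2:**
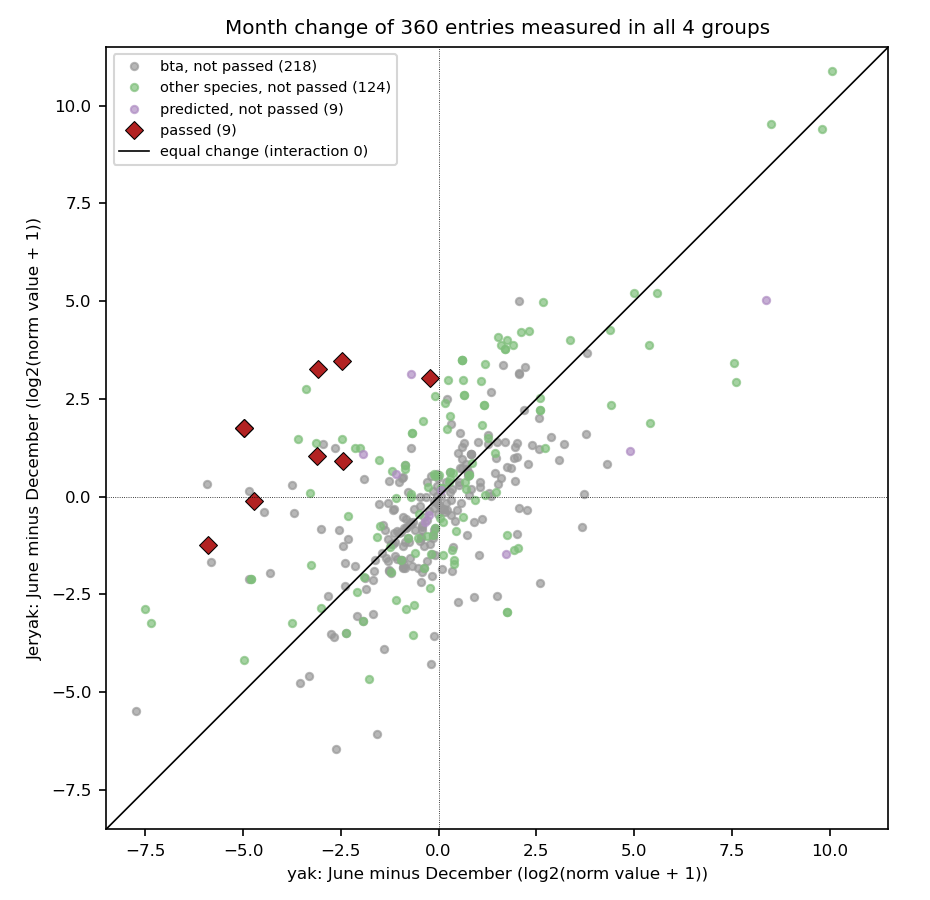
June minus December difference in Jeryak against that in yak for the 360 measured entries, both as log2(norm value + 1). The line marks equal change, and the 9 entries that passed (diamonds, of which the pair named after efu-miR-9277 coincide) lie above it, 7 of them in the quadrant where Jeryak was higher and yak lower in June.

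The 25 entries at 0 in a whole group fell into patterns set by the group in which they appeared. Of the 34 entries that passed, 10 were above 0 in a single group, 7 in June Jeryak, 1 in December Jeryak and 2 in June yak. For such an entry the interaction is the level in that group, and it restates presence there. No fold is given against a group at 0. Of the 260 tested entries at 0 in a whole group, 205 were at 0 in December yak and 154 in December Jeryak. In June yak 60 were, and in June Jeryak 32, and an entry can be at 0 in several groups. Among the 25 that passed, the counts in this order were 16, 13, 15 and 8. Of the 25, 15 were predicted candidates, 8 entries of other species and 2 bta entries. Norm values of at least 10 in 1 group alone let 25 of the 620 entries into the test. All 10 passing entries above 0 in a single group were admitted in this way. So were others that passed, among them ggo-mir-4488-p5_1ss18TA, mmu-mir-6236-p5_1ss15CG, PC-3p-43357_134 and bta-miR-12023_1ss17GA. For all of these the admission and the call rest on the same values, and the adjusted p adds no separate support.

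**Figure D3:**
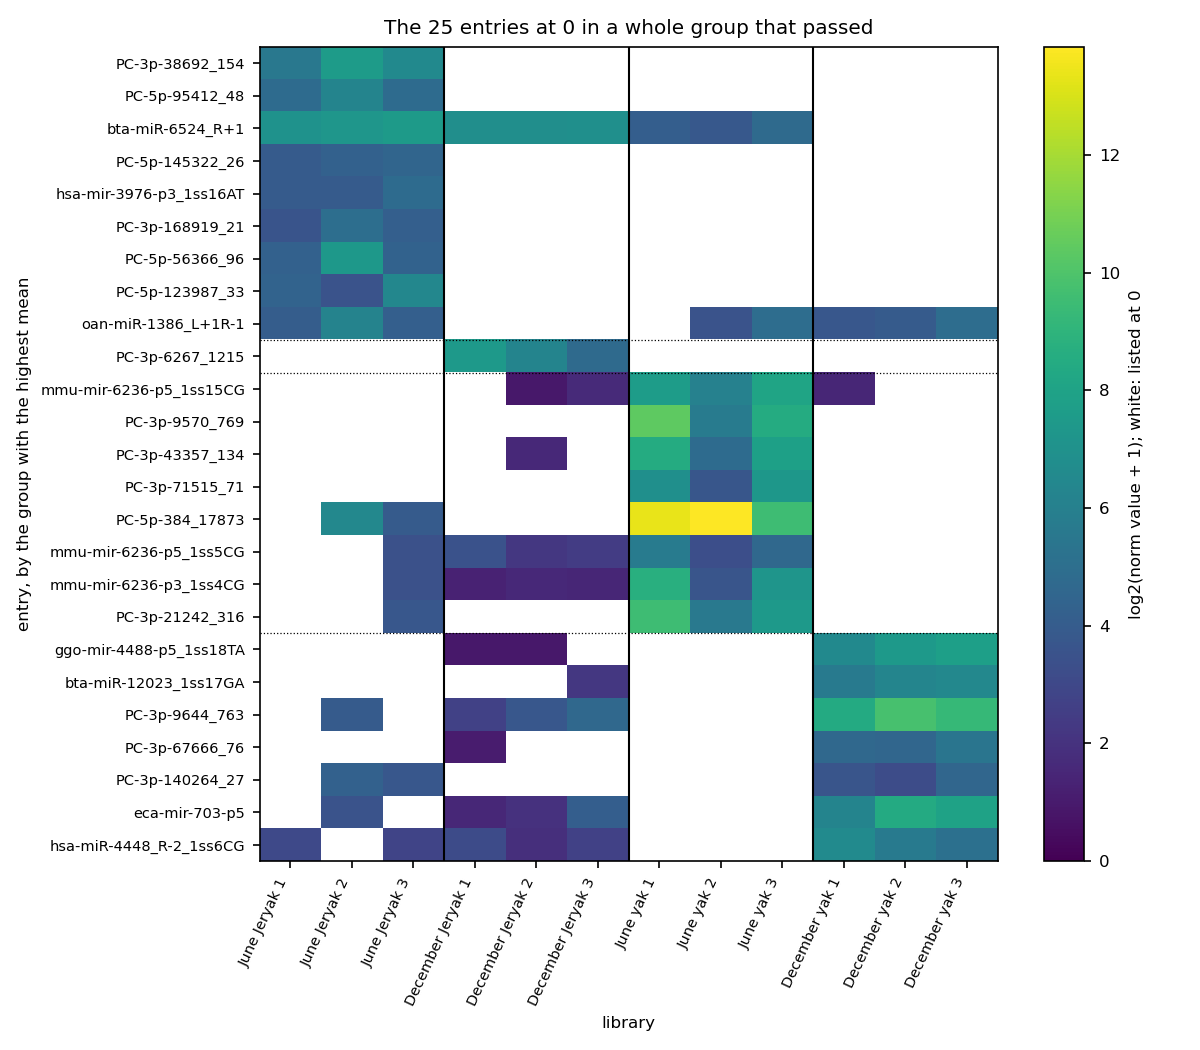
Norm values, as log2(value + 1), of the 25 entries at 0 in a whole group that passed, with 1 column per library and entries ordered by the group of highest mean. White cells are values listed at 0, and 9, 1, 8 and 7 entries have their highest mean in June Jeryak, December Jeryak, June yak and December yak.

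bta-miR-6524_R+1 was the cattle-named entry that passed and was at 0 in December yak milk alone. It had norm values of 133, 152 and 188 in June Jeryak, 115, 112 and 119.6 in December Jeryak and 16.5, 13.2 and 26.8 in June yak milk, and was listed at 0 in all 3 December yak libraries. Both groups of Jeryak were above both groups of yak in every library, and June Jeryak above December Jeryak in every library, though by little. The interaction had an adjusted p of 0.022, the June against December difference one of 0.56 in Jeryak and of 7.4e-05 in yak. June yak values were no more than 26.8, close to the minimum of 10 used for the test. The call was lost when values under 10 were set to 10 (adjusted p = 0.82), with 10 added to the values in place of 1 (adjusted p = 0.37), without any one December Jeryak library and without December yak replicate 3 (adjusted p = 0.061 to 0.076).

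bta-miR-12023_1ss17GA, an 18 nt entry with 1 base changed from its cattle precursor, was the reverse case. It had 50.3, 76.8 and 85.7 in December yak milk, 3.77 in 1 December Jeryak library, and was listed at 0 in the other 8 libraries. December yak thus did not overlap with any group (interaction adjusted p = 0.024). Its longer relative bta-miR-12023_L-1R+1, measured in all groups, had 0, 80.0 and 19.7 in June Jeryak, 9.75, 12.9 and 25.1 in December Jeryak, 49.5, 31.6 and 121 in June yak and 520.2, 1455 and 589 in December yak milk, with December yak again above all others and an adjusted p of 0.32. With 10 added to the values it passed too. The call of bta-miR-12023_1ss17GA was lost without December Jeryak replicate 1 or 2 or December yak replicate 3 (adjusted p = 0.065 to 0.076).

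Other entries peaked in December yak milk, were listed at 0 in June yak milk and were at 0 or low in Jeryak milk. ggo-mir-4488-p5_1ss18TA, of a gorilla-named precursor, had 92.7, 178 and 224 in December yak, 0.886 and 0.888 in December Jeryak replicates 1 and 2, and was listed at 0 in the other 7 libraries (adjusted p = 0.0069). It passed in all 12 fits without 1 library. Of 5 tested entries named after miR-4488, all had a positive interaction (327 of all 620 tested entries). The highest mean was in December yak for 3 (17.6% of all tested entries), of which 1 passed, and in June Jeryak for 2. The entry that passed shares 14 nt or more with 2 of the others, so the 5 are not independent. eca-mir-703-p5, a horse-named entry, had 75.9, 346 and 249.7 in December yak, 1.95, 2.92 and 16.4 in December Jeryak and 10.5 in 1 June Jeryak library (adjusted p = 0.042). hsa-miR-4448_R-2_1ss6CG, a human-named entry, had 97.8, 50.7 and 33.5 in December yak, 7.80, 2.60 and 5.39 in December Jeryak and 7.39, 0 and 6.17 in June Jeryak (adjusted p = 0.042). Both were listed at 0 in all June yak libraries, both were named after their values were seen, and their calls were lost in 9 and 10 of the 12 fits without 1 library. The predicted candidates of this pattern were 3, with December yak means of 14.1 to 618, and the highest, PC-3p-9644_763, had 353, 892 and 609 there against 5.50, 12.4 and 24.5 in December Jeryak.

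June yak milk was the peak of 8 of these entries, 3 of them under the mouse name mir-6236, a precursor whose sequence in mouse lies in ribosomal RNA. mmu-mir-6236-p5_1ss15CG had 196, 66.2 and 272 in June yak milk, and no value above 2.16 in the other 9 libraries (adjusted p = 0.0069). mmu-mir-6236-p5_1ss5CG had 52.8, 9.17 and 24.1 in June yak, 10.1, 3.68 and 4.45 in December Jeryak and 9.87 in 1 June Jeryak library (adjusted p = 0.033), and June yak overlapped with both. mmu-mir-6236-p3_1ss4CG, named after its values were seen, had 419, 11.7 and 146 in June yak, 1.51, 2.03 and 1.75 in December Jeryak and 9.87 in 1 June Jeryak library (adjusted p = 0.045). All 3 had June yak replicate 2 as the lowest of that group. The last 2 are shifted reads of the same stretch, with the 18 nt they share in capitals.
mmu-mir-6236-p5_1ss5CG: gAATGAACTAGCCCTGAAA
mmu-mir-6236-p3_1ss4CG: AATGAACTAGCCCTGAAAatgga
Members of this name did not share 1 direction of interaction. Of 15 tested, 7 had a positive and 8 a negative interaction. The highest mean was in June Jeryak for 8 and in June yak for 6, and a June yak peak by itself pushes the interaction negative. Summed over the 15, mean norm values were 2268 in June and 128 in December for Jeryak, and 3697 and 297 for yak. mmu-mir-6236-p5_1ss15CG passed in all 12 fits without 1 library, mmu-mir-6236-p5_1ss5CG was lost in 8 and mmu-mir-6236-p3_1ss4CG in 10.

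Predicted candidates accounted for the other 5 entries with a June yak peak, with means of 97.3 to 8687. PC-3p-9570_769 had 1339.8, 52.5 and 359.6 and PC-3p-71515_71 119, 12.2 and 161 in June yak milk, and both were listed at 0 in the other 9 libraries (adjusted p = 0.0097 and 0.024). PC-3p-43357_134 had 363, 27.5 and 231, with 2.03 in 1 December Jeryak library (adjusted p = 0.011). The spread within June yak was wide for each of them, and replicate 2 was lowest. The highest value belonged to PC-5p-384_17873, an 18 nt candidate with 10709, 14613 and 738 in June yak, 0, 88.4 and 14.8 in June Jeryak, and 0 in all 6 December libraries (adjusted p = 0.027). Its order within June yak was different, with replicate 3 lowest, and its call was lost in 9 of the 12 fits without 1 library. PC-3p-71515_71 and PC-5p-384_17873 were named after their values were seen.

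June Jeryak milk was the sole place of 7 entries, 6 predicted candidates with means of 18.6 to 111 and the human-named hsa-mir-3976-p3_1ss16AT. PC-3p-38692_154 had 46.2, 192 and 93.8 and was listed at 0 in the other 9 libraries (adjusted p = 0.0069). hsa-mir-3976-p3_1ss16AT had 14.8, 14.7 and 27.1 (adjusted p = 0.025), near the minimum of 10, and its call was lost in 5 of the 12 fits without 1 library. oan-miR-1386_L+1R-1, a platypus-named entry named after its values were seen, had 15.7, 72.6 and 17.3 in June Jeryak, 0, 10.7 and 29.5 in June yak and 12.4, 14.7 and 29.8 in December yak, and was at 0 in December Jeryak (adjusted p = 0.045). Its 3 groups above 0 overlapped. December Jeryak milk had 1 such entry, PC-3p-6267_1215, with 174, 74.9 and 26.4 there and 0 in the other 9 libraries (adjusted p = 0.011). It was chosen for being alone in its pattern, after its values were seen.

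None of the 218 bta entries measured in all groups passed with limma, while 19 had an unadjusted p under 0.05, and the smallest adjusted p was 0.082. When the 251 bta entries were fitted alone, 0 passed and 22 had an unadjusted p under 0.05. The median width of a 95% interval to each side, unadjusted, was 1.91 for a measured bta entry. The adjusted threshold asks for more. For the typical entry a breed difference in month change of that size, or somewhat above it, could therefore be missed. For the most abundant miRNAs the intervals were narrower. bta-miR-148a, a leading miRNA of milk known to act on a DNA methyltransferase messenger, had 90126, 84361 and 87217 in June Jeryak, 58871, 57473 and 89789.5 in December Jeryak, 82407, 64287 and 70441 in June yak and 58244, 84682 and 50203 in December yak milk. Its interaction was 0.18 (95% interval -0.63 to 0.98, adjusted p = 0.83). bta-miR-30a-5p had an interaction of -0.36 (95% interval -1.29 to 0.57, adjusted p = 0.67), and the epithelial miRNAs bta-miR-200a and bta-miR-200b_R+1, known to hold down the ZEB transcription factors, -0.13 (95% interval -0.93 to 0.68, adjusted p = 0.89) and -0.06 (95% interval -1.18 to 1.06, adjusted p = 0.97). bta-miR-320a, whose precursor bypasses Drosha, had an interaction of 1.11 (95% interval -0.63 to 2.84, adjusted p = 0.46). Its June values were 18607, 96851 and 58017 in Jeryak and 21081, 19848 and 70879 in yak, overlapping between the breeds.

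**Figure D4:**
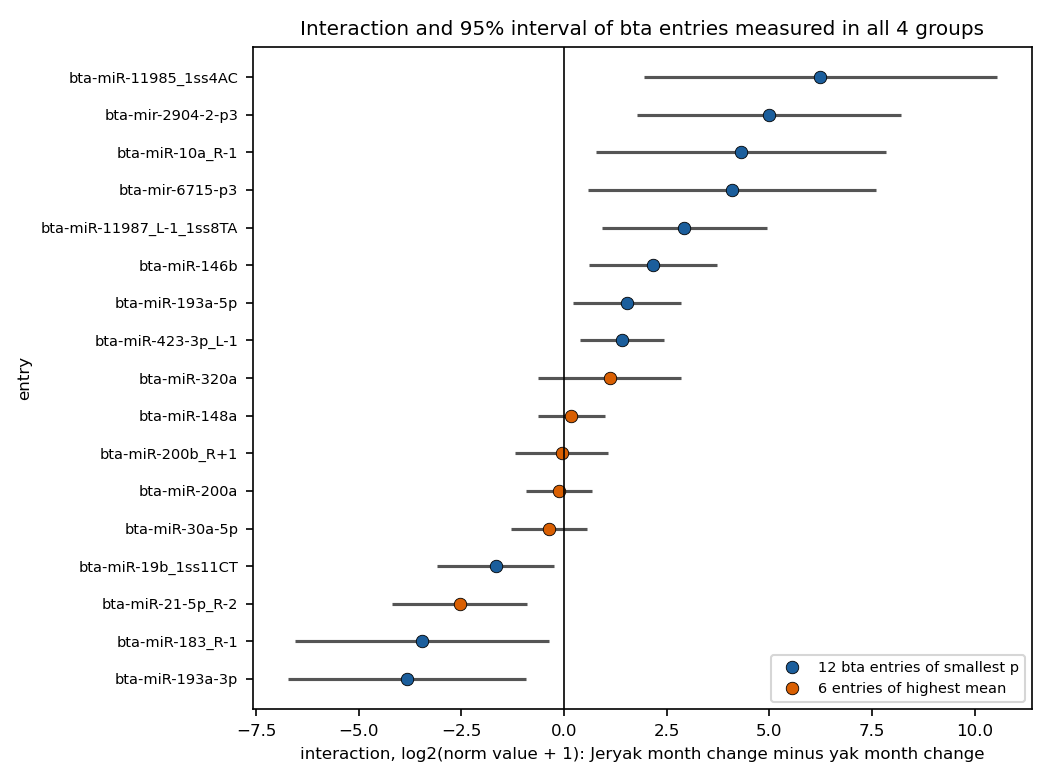
Interaction of measured bta entries with its 95% interval, as log2(norm value + 1). Blue points are entries of smallest p and orange points those of highest mean, with bta-miR-21-5p_R-2 in both sets, and none of these entries had an adjusted p under 0.05.

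Of the abundant miRNAs, bta-miR-21-5p_R-2 stood furthest from 0. miR-21 is abundant in milk and in activated immune cells. It had 52445, 39563 and 26514 in June Jeryak, 94838, 267446 and 49239 in December Jeryak, 81998, 53527 and 40589.9 in June yak and 43524, 19411 and 24359 in December yak milk. December Jeryak was above December yak in every library, and the June groups overlapped. The interaction was -2.54 (95% interval -4.18 to -0.90, adjusted p = 0.082), with June minus December at -1.50 in Jeryak (adjusted p = 0.04) and 1.04 in yak (adjusted p = 0.15). The December Jeryak mean rested largely on replicate 2. Without that library the interaction was -1.88 (adjusted p = 0.15), and without December Jeryak replicate 3 it was -3.10 and passed (adjusted p = 0.036).

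The same library held the highest value of another miRNA known from immune cells, whereas bta-miR-146b, also known from them, was highest in December yak milk. bta-miR-142-5p_L+2R-1, of blood-forming cells, had 249.6, 4882 and 256 in December Jeryak and no value above 69.0 in the other 9 libraries, with an interaction of -4.50 (95% interval -8.69 to -0.30, adjusted p = 0.27). Of 12 immune cell miRNAs listed, 11 were tested, none passed and 3 had an unadjusted p under 0.05, 1 positive and 2 negative, with a median interaction of -0.58 over the 9 measured in all groups, against -0.25 over measured bta entries. The remaining pair, bta-miR-142-3p_L+2R-2 and bta-miR-150_R-1, were listed at 0 in all 6 June libraries, and with their fitted values, which depend on the pseudocount, the median over 11 was -1.26. Summed over the list the norm values were 65653 to 292875 in December Jeryak, 31987 to 60854 in December yak, 36766 to 65131 in June Jeryak and 50978 to 95048 in June yak. The list includes bta-miR-21-5p_R-2, which made up 60.7 to 91.3% of these sums. Without it the sums were 14892 to 25429 in December Jeryak, 12576 to 17330.4 in December yak, 7572 to 12685 in June Jeryak and 10388 to 13049.5 in June yak, and the December groups overlapped. The part of immune cells in the values of bta-miR-21-5p_R-2 was not tested.

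In the other direction bta-miR-146b, known from a feedback on inflammatory signalling, had 90.6, 65.3 and 192 in June Jeryak, 135, 322 and 148 in December Jeryak, 52.8, 64.2 and 73.8 in June yak and 343, 592 and 658 in December yak milk. December yak was the highest, with every library above all others, and June yak overlapped with June Jeryak. Its interaction was 2.17 (95% interval 0.61 to 3.74, adjusted p = 0.13), and June minus December was -3.0 in yak (adjusted p = 4.4e-04) and -0.83 in Jeryak (adjusted p = 0.21). bta-miR-146a_R-2, which shares its seed, had an interaction of the opposite sign, -4.08 (95% interval -8.64 to 0.48, adjusted p = 0.32). bta-miR-423-3p_L-1 had the narrowest interval of this group, 1.42 (95% interval 0.39 to 2.44, adjusted p = 0.13). Its values were 1711, 2040.0 and 1966 in June Jeryak, 1025, 1384 and 1797 in December Jeryak, 1396, 1112 and 1578 in June yak and 1673, 3308 and 3126 in December yak milk.

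The 2 measured bta entries with an interaction furthest from 0 were reads of 20 and 18 nt with 85.0 and 94.4% G and C. bta-miR-11985_1ss4AC had 25.9, 37.9 and 41.9 in June Jeryak, 18.4, 24.0 and 45.8 in December Jeryak, 0, 69.3 and 148 in June yak and 503, 2014 and 2272 in December yak milk, with December yak above every other library and an interaction of 6.25 (95% interval 1.95 to 10.54, adjusted p = 0.11). bta-mir-2904-2-p3 had 9.24, 229 and 382 in June Jeryak, 54.1, 109 and 108 in December Jeryak, 16.5, 14.3 and 13.4 in June yak and 224, 695 and 585 in December yak milk. June yak was low and even, June Jeryak overlapped with both December groups, and the interaction was 5.0 (95% interval 1.78 to 8.22, adjusted p = 0.082). These passed with 10 added to the values in place of 1 (adjusted p = 0.02 and 0.035). bta-miR-11987_L-1_1ss8TA was higher in June than in December in both breeds, and its interaction did not pass. It had 4781, 20438 and 12448 in June Jeryak, 317, 362 and 324 in December Jeryak, 7910.4, 1744 and 5466 in June yak and 519, 2291 and 863 in December yak milk, a June minus December difference of 5.0 in Jeryak (adjusted p = 6.6e-05) and 2.07 in yak (adjusted p = 0.028), and an interaction of 2.93 (95% interval 0.91 to 4.95, adjusted p = 0.11).

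The strands of miR-193a differed from each other. bta-miR-193a-3p had 16.6, 0 and 0 in June Jeryak, 142, 209.7 and 395 in December Jeryak, 42.9, 76.4 and 42.9 in June yak and 313, 481 and 233 in December yak milk, and was lowest in June Jeryak with no overlap. Its interaction was -3.83 (95% interval -6.72 to -0.93, adjusted p = 0.15). bta-miR-193a-5p had 571, 2029.5 and 1130.0 in June Jeryak, 279, 246 and 401 in December Jeryak, 657, 576 and 502 in June yak and 528, 477 and 386 in December yak milk, with June Jeryak highest but overlapping June yak, and an interaction of 1.53 (95% interval 0.22 to 2.85, adjusted p = 0.23). The ratio of the 3p to the 5p strand was 0 to 0.0291 in June Jeryak, 0.0653 to 0.133 in June yak and 0.508 to 1.01 in the 6 December libraries. Without June Jeryak replicate 1 both passed (adjusted p = 0.0048 and 0.037). That library was the only one of June Jeryak with bta-miR-193a-3p above 0, so that June Jeryak was then at 0 for this strand.

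Among the remaining bta entries of small p, bta-miR-10a_R-1, from a HOX gene cluster, had an interaction of 4.31 (95% interval 0.77 to 7.85, adjusted p = 0.21). For bta-mir-6715-p3 it was 4.09 (95% interval 0.57 to 7.60, adjusted p = 0.23), and for bta-miR-19b_1ss11CT, a variant of a miRNA from a cluster known to promote growth, -1.66 (95% interval -3.09 to -0.24, adjusted p = 0.23). In June yak bta-miR-10a_R-1 was at 0 in 2 libraries and bta-mir-6715-p3 likewise, so both rest on 1 library of that group above 0. They passed without June yak replicate 3 (adjusted p = 0.035) and without June yak replicate 2 (adjusted p = 0.0024), the library above 0 in each case, so that June yak was then at 0.

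The miR-183 cluster, 3 miRNAs transcribed together and best known from sensory cells, had the lowest median interaction of the 18 lists. bta-miR-183_R-1 had 83.2, 147 and 83.9 in June Jeryak, 74.3, 22.7 and 102 in December Jeryak, 66.0, 39.7 and 48.3 in June yak and 0, 16.3 and 0 in December yak milk, with 2 December yak libraries at 0. Its interaction was -3.46 (95% interval -6.56 to -0.36, adjusted p = 0.25). For bta-miR-96_R-2 it was -1.87 (95% interval -3.70 to -0.05, adjusted p = 0.27) and for bta-miR-182_R-2 -1.33 (95% interval -2.74 to 0.08, adjusted p = 0.29). Each was higher in June than in December in both breeds by its means, by 4.31, 3.21 and 2.56 in yak (adjusted p = 0.0049, 8.6e-04 and 6.8e-04) and by 0.84, 1.34 and 1.23 in Jeryak (adjusted p = 0.52, 0.087 and 0.048). The median of the 3 was -1.87, with none past the threshold and 2 at an unadjusted p under 0.05.

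No member of the other lists passed for the interaction. Medians are over the members measured in all groups. bta-let-7a-5p was tested, but was not matched to let-7a of the lists. It is left out of the values for the let-7 and miR-98 family and for the milk-abundant miRNAs. The median was -0.13 over 19 milk-abundant miRNAs, of which 1 had an unadjusted p under 0.05. It was -0.13 over 7 epithelial miRNAs and -0.19 over both 8 matched members of the let-7 and miR-98 family and the 6 of the miR-30 family, with none under 0.05. For 11 measured of 12 tested miRNAs from the clusters of miR-17 to miR-92 it was -0.66, for 4 related to miR-15 (with miR-16 and miR-195) -0.85 and for 10 measured of 12 tested of the miR-2284 and miR-2285 group of cattle -0.79, again with none under 0.05. The miR-181 family had 0.18 over 2 measured members, which became -0.12 with the fitted value of bta-miR-181c_R-2, at 0 in a group, the miR-29 family -0.96 over 3, and miR-148 with miR-152 0.18 over 3. Those of red blood cells had -0.23 over 4, of stromal and endothelial cells 0.06 over 4 measured of 5 tested (0.35 over all 5) and of muscle, liver and nerve -0.65 over 3, with none under 0.05. For miR-23, miR-27 and miR-24 it was -0.55 over 6, and for miR-10, miR-99, miR-100 and miR-125 -0.02 over 7, with 1 of each under 0.05. Of 10 tested miRNAs named in the study's discussion, 2 had an unadjusted p under 0.05, bta-miR-146b and bta-miR-2478_L-2. The study cites miR-2478 for a difference between cattle breeds in summer. bta-miR-2478_L-2 had 539.6, 714 and 851 in June Jeryak, 100.3, 126 and 94.6 in December Jeryak, 271, 399 and 437 in June yak and 126, 86.6 and 268 in December yak milk. Its interaction was 1.36 (95% interval 0.00 to 2.72, adjusted p = 0.27).

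The calls differed in how far they depended on single libraries. Of the 34 entries, 8 passed in all 12 fits without 1 library, 14 were lost in 1 to 6 and 12 in 7 or more. The 8 were PC-5p-681_10485, mmu-miR-5100_L+2R-1, ggo-mir-4488-p5_1ss18TA, mmu-mir-6236-p5_1ss15CG and the candidates PC-3p-38692_154, PC-3p-9570_769, PC-3p-43357_134 and PC-3p-6267_1215. Only PC-5p-681_10485 and mmu-miR-5100_L+2R-1 among them were measured in all 4 groups. The others were at 0 in a whole group, so leaving out a library of that group does not change its mean. For them these fits say little about how firm the call is. PC-3p-38692_154, PC-3p-9570_769 and PC-3p-6267_1215 were above 0 in a single group, where the interaction restates presence.

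**Figure D5:**
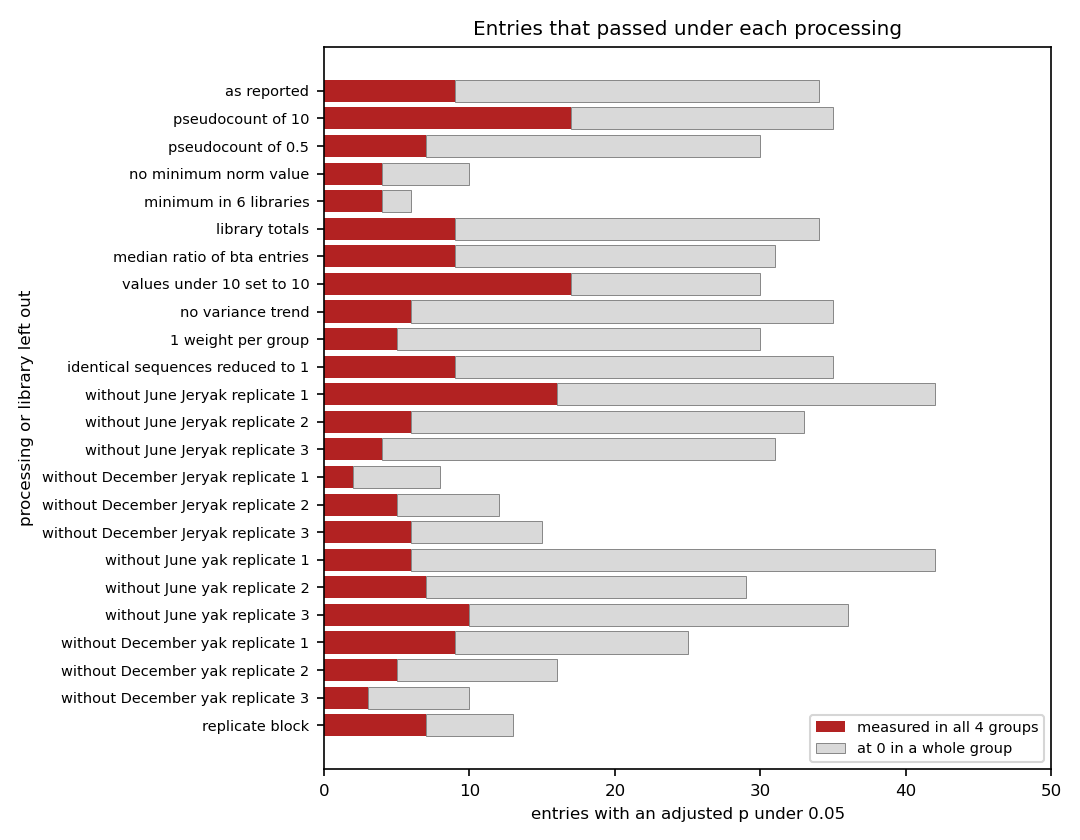
Number of entries with an adjusted p under 0.05 under each way of processing and without each library, measured entries in red and entries at 0 in a whole group in grey. The fit of bta entries alone, in which 0 passed, is not drawn. The totals drawn run from 6 to 42, and the 5 lowest counts without 1 library are those without a December library.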

How the data were processed

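Small RNA of milk exosomes was sequenced by the study on single-end Illumina reads of TruSeq small RNA libraries. The authors processed the reads with ACGT101-miR against miRBase 22.0, matching sequences of 18 to 26 nt to cattle precursors, then to those of other species, with 1 mismatch and end variation allowed, and deposited a signal per entry and library, the norm value (copy number multiplied by 1 correction factor per library). Which genome build served for the predicted candidates is not stated in these sources. Suffixes L and R of a name give bases added or lost at the ends, and ss a substitution. Of values above 0, 72.7 to 85.9% were whole multiples of 1 copy (within 0.01 of a copy), so whole reads were not recovered and no test on counts was run.

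Here log2(norm value + 1) was fitted with limma 3.58.1 (R 4.3.3) with a variance trend, 1 mean per group and all 12 libraries, leaving 8 residual degrees of freedom. P-values are two-sided and Benjamini-Hochberg adjusted over all 620 tested entries, and an entry passed at an adjusted p under 0.05 with no minimum fold. Folds are ratios of mean norm values, and differences on the log scale understate the change of low entries. The test was tried on simulated data first. Python 3.11.15 with numpy 2.4.6, pandas 2.3.3 and matplotlib 3.10.9 served for tables and plots. Named were the entries of smallest p by kind (measured: 12 bta, passing or not, and of those that passed up to 6 of other species and 4 predicted; at 0 in a group, of those that passed, up to 8, 4 and 3), the 6 of highest mean, the 2 of smallest p in each of 18 lists, and miRNAs the study discussed. The entries and lists were chosen with earlier results of these data known. Reads that match several precursors are shared out or repeated between entries, so bta-miR-100_R-1_1ss16AT and bta-miR-99a-5p hold the same values, and near-identical entries are uncertain. No result is given for 1 of its lines. Alternatives were other pseudocounts, minimums, scalings and variance models, each library left out and a replicate block.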

Additional observations from a re-analysis of the deposited data

Results flagged for a closer look

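Entries whose month change differed between the breeds by a test of that difference were singled out here. Measured in all groups were mmu-miR-5100_L+2R-1 with an interaction of 6.37, ssc-miR-1285_L-1R+1 with 4.62, hsa-miR-10400-5p_R-3_1ss12GA with 5.93, chi-miR-29b-5p_L+1R-5 with 4.66, pal-mir-10001-p5 with 3.35, mmu-miR-5126_R-2_1ss18CT with 3.26, PC-5p-681_10485 with 4.16, and efu-miR-9277_L-3R+1_1 and efu-miR-9277_L-3R+1_2 with 6.73 each, on the log2 scale. At 0 in a whole group, and so given by the adjusted p from limma alone, were ggo-mir-4488-p5_1ss18TA, mmu-mir-6236-p5_1ss15CG and PC-3p-38692_154 (0.0069 each), PC-3p-9570_769 (0.0097) and PC-3p-43357_134 (0.011). The others of this kind were bta-miR-6524_R+1 (0.022), bta-miR-12023_1ss17GA (0.024), hsa-mir-3976-p3_1ss16AT (0.025), mmu-mir-6236-p5_1ss5CG (0.033), eca-mir-703-p5 and hsa-miR-4448_R-2_1ss6CG (0.042 each), and mmu-mir-6236-p3_1ss4CG and oan-miR-1386_L+1R-1 (0.045 each). Several entries at 0 in a whole group reached 10 in 1 group alone, so their admission and their call rest on the same values.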

How the results depend on the processing

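The number of entries that passed, 34 in all with 9 measured in every group and 25 at 0 in a group, ran from 8 to 42, from 2 to 16 and from 6 to 36 when 1 library was left out. With no minimum norm value, which raises the number of entries tested to 2263, it was 10, 4 and 6. With the minimum asked of 6 libraries, which leaves 380 entries, it was 6, 4 and 2. With 10 added to the values in place of 1, 17 measured entries passed. With values under 10 set to 10 it was 17 measured and 13 at 0, and 80.0% of the calls were positive against 70.6%. With 1 weight per group 5 measured entries passed and 60.0% of the calls were positive. The cause of these changes was not tested. The bta entries alone gave 0.

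The values do not settle whether libraries with the same replicate number share an animal, since correlations were low for all pairs. Deviations of libraries with the same number had correlations of -0.062 to 0.127, against -0.113 to 0.170 for other pairs, and 2 of 6 June libraries were closest to their own number. With the replicate block 13 entries passed, 11 of them among the 34, 7 measured and 6 at 0 in a group, and bta-miR-21-5p_R-2 passed (adjusted p = 0.043 from limma).

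Of 495 alternatives run for the 22 named entries that passed, 329 kept the call, 166 lost it and none reversed the direction. Of 1171 for the 49 named entries that did not pass, 16 passed. With 3 libraries per group and 1 copy worth up to 3.30 of norm value, low entries and small differences were at the limit of detection.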
